A study of Mus musculus with 12 samples.

Results

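The genes described here encode enzymes of gluconeogenesis (Pck1, Fbp1, G6pc and the transporter gene Slc37a4) and of the urea cycle and its intestinal form, citrulline and arginine synthesis (Nags, Cps1, Otc, Asl, Arg1 and Arg2). They were taken by name, from the array features paired with 1 gene symbol. All 10 were measured, each by 1 feature, out of 19938 genes in the table. RNA came from the duodenum of mice of strain 129 on postnatal day 15, before weaning, and on day 30, after it. The mice were either wild type or had the gene for the transcription factor Onecut2 ablated, and no group was treated. There were 3 arrays in each of the 4 groups, wild type day 15, knockout day 15, wild type day 30 and knockout day 30. Each array held a pool of RNA, made from 5 to 8 mice of both sexes. The replicates are separate pools, so the errors measure the spread between pools and arrays and not between single mice. The labels do not say in which cells the ablation acts or which part of the gene it removes.

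Gluconeogenesis makes glucose from lactate, amino acids and glycerol by going around the one-way steps of glycolysis. In the urea cycle of the liver, ammonia is fixed into carbamoyl phosphate, joined to ornithine to give citrulline, and passed on to arginine, which arginase splits into urea and ornithine. Enterocytes carry the mitochondrial steps as well. In the suckling gut they also carry the steps from citrulline to arginine, which milk supplies sparingly, and at weaning much of that last conversion passes to the kidney.

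Of the 6 genes with a RefSeq promoter entry, the promoters of those that differed most between groups are printed first, so that they can be set beside the values. Each is the stretch of 250 bases before the gene's first RefSeq start site (build GRCm38.p6), read 5′ to 3′ on the gene's strand. Pck1 lies at chr2:173152823-173153072, plus strand, and Fbp1 at chr13:62888283-62888532, minus strand. G6pc lies at chr11:101367466-101367715, plus strand, Slc37a4 at chr9:44396696-44396945, plus strand, and Otc at chrX:10252055-10252304, plus strand. Capitals mark matches to 6 short motifs searched on both strands: TGACG (a core of the cyclic AMP response element), TATAAA (the box before many starts), GTTAAT (an arm of the HNF1 site), CAAAGTCC (HNF4 core), ATCAAT (a core that ONECUT factors bind) and, as its variant, ATCGAT. No match overlapped another in the windows shown.
Pck1: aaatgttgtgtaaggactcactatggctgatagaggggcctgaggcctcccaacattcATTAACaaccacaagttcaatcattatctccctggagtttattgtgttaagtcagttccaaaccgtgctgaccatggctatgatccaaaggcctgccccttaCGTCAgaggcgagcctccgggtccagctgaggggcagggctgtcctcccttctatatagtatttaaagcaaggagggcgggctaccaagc
Fbp1: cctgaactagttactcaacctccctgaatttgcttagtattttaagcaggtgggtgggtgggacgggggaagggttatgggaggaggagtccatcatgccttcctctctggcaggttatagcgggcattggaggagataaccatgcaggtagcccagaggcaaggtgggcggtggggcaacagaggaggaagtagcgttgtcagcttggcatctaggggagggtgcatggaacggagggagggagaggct
G6pc: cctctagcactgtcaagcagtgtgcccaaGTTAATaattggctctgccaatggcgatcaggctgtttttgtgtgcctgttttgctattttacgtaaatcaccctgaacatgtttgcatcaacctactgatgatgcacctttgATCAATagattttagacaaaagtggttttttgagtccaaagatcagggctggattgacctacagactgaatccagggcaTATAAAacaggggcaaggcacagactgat
Slc37a4: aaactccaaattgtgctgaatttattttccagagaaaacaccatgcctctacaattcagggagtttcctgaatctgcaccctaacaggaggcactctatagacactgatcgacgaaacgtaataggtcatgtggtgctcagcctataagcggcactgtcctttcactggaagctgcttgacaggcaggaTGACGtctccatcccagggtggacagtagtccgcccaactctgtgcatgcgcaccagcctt
Otc: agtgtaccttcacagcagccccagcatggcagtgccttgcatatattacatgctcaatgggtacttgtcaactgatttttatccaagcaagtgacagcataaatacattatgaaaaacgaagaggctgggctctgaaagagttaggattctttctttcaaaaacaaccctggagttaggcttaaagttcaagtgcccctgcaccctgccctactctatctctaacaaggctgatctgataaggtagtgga

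Pck1 holds TGACG on the opposite strand, 90 to 86 bases before the start, and GTTAAT on the opposite strand, 192 to 187 bases before it. In G6pc, TATAAA lies 29 to 24 bases before the start, ATCAAT 108 to 103 and GTTAAT 221 to 216. Slc37a4 holds TGACG 61 to 57 bases before its first start. The gene has other RefSeq starts, whose windows are not printed. In the window of start 2 the same TGACG lies 214 to 210 bases before the start. Another lies 82 to 78 bases before it on the opposite strand. In the window of start 3, TATAAA lies 32 to 27 bases before the start. Fbp1 and Otc hold none of the 6 strings in these windows, nor does Nags, the remaining gene with an entry. Of all 32536 RefSeq windows of this length, 17.9% hold TGACG, 12.3% TATAAA, 6.47% GTTAAT, 1.2% CAAAGTCC, 6.6% ATCAAT and 0.735% ATCGAT. A match of letters is a description of the window and not a bound site. Cps1, Asl, Arg1 and Arg2 are named without a promoter sequence.

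All 12 arrays had similar overall distributions, with medians between 7.20 and 7.25 on the log2 scale, and correlations between arrays of 0.972 to 0.995. The deposited values are log2 expression values, so a difference of 1 is a 2-fold change. The group means of Onecut2 at day 15 were 9.64 (wild type) and 8.14 (knockout), and at day 30 they were 9.58 and 8.22. Where its probes lie relative to the ablated part is not known here. Markers of villus enterocytes were bright in all groups, with a mean of 13.01 to 13.20 per array. At day 15 this mean was 13.08 to 13.14 in wild type and 13.17 to 13.20 in knockout. At day 30 it was 13.01 to 13.09 and 13.16 to 13.20, so every knockout array lay above every wild type array. The part of this small shift in the genotype differences was not tested. The 13 measured hepatocyte markers averaged only 5.64 to 5.93 per array, below every array's median, with the group means of albumin (Alb) at 5.53 to 5.79. Differences were tested with limma over all 19938 genes, with Benjamini-Hochberg adjustment within each comparison and a threshold of 0.05.

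**Figure D1:**
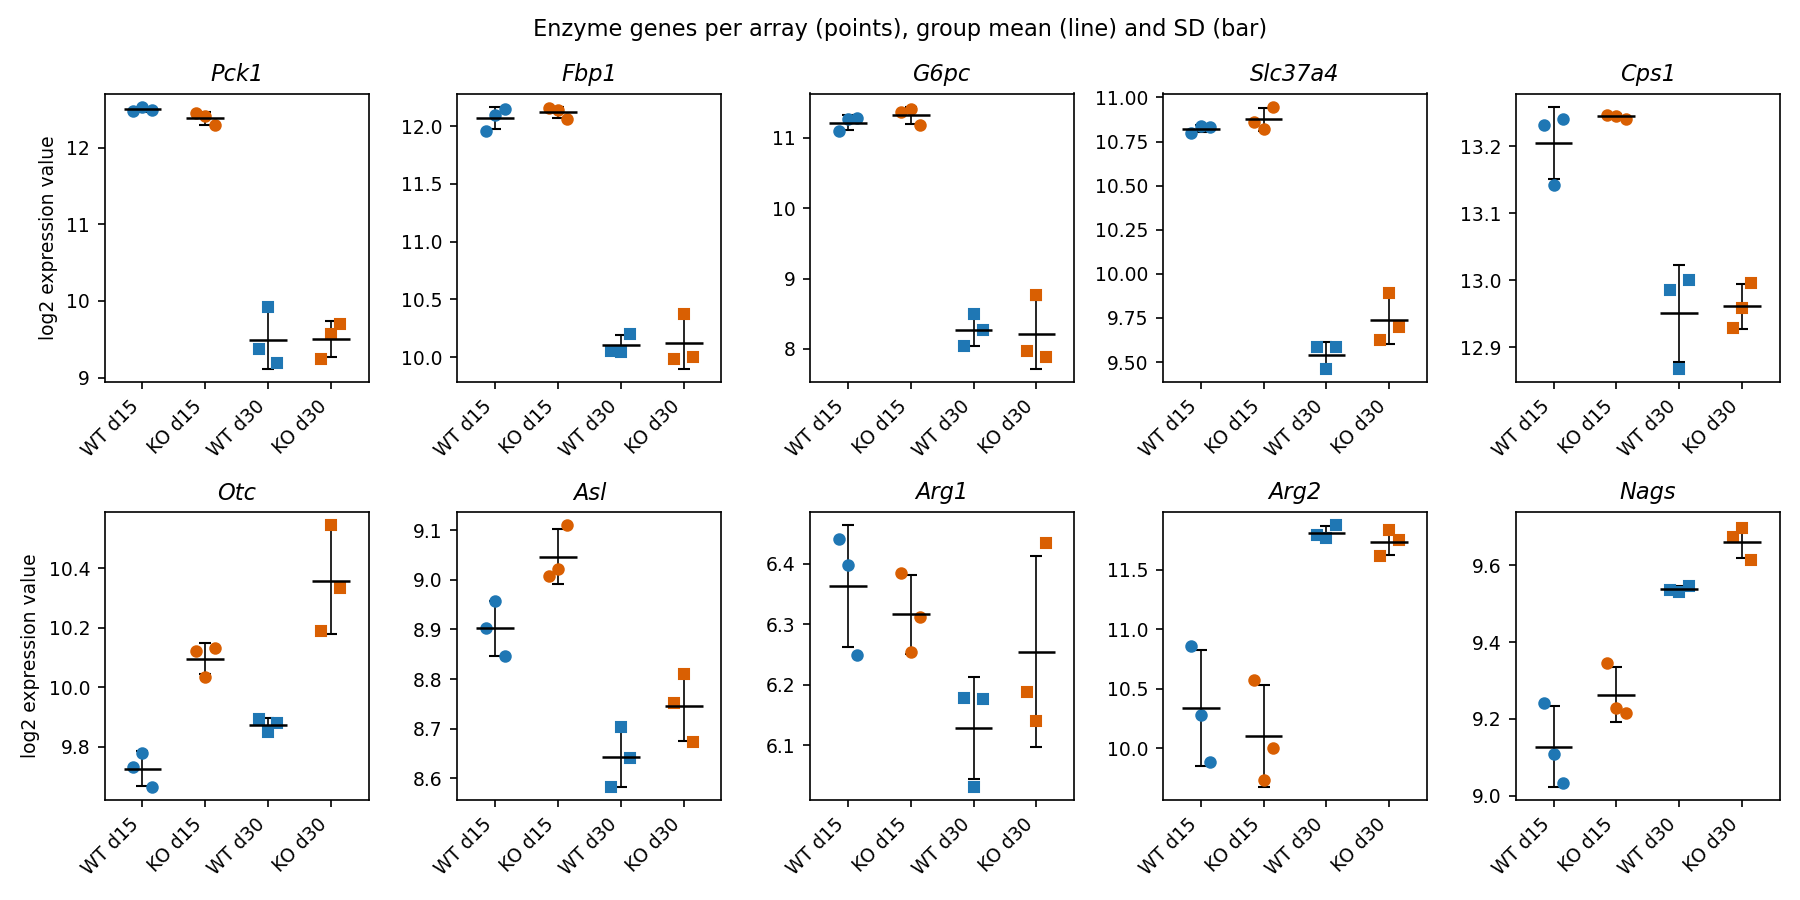
Log2 expression value (vertical axis, a separate scale for each gene) of the 10 enzyme genes on each array, by genotype (WT, wild type; KO, Onecut2 knockout) and postnatal day (d15, d30). Points are arrays, horizontal lines are group means and bars are the SD over 3 arrays. Pck1, Fbp1, G6pc and Slc37a4 fall in separate bands by age, Arg2 and Nags in the opposite order, and Otc also separates the genotypes at each age.

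The comparison of ages asks which of these genes changed over weaning. The 4 gluconeogenic genes fell together, by 1.14 to 3.12 on the log2 scale, in both genotypes. Of the urea cycle and arginine genes, Cps1 and Asl fell slightly and Arg2 and Nags rose, in both genotypes. In wild type, 8 of the 10 genes passed the test (2 higher and 6 lower), where 29.3% of all genes passed, 12.3% higher and 17% lower. In knockout, 9 of 10 passed (3 higher and 6 lower), where 31% of all genes did, 13.8% higher and 17.2% lower. The balance over all genes turned when each array was centred on its median, from 2455 higher and 3394 lower to 4057 and 2662 in wild type, and from 2753 and 3425 to 4068 and 2815 in knockout. The counts of the 10 genes in each direction were the same under that centring. The median change of the 10 genes was -0.26 in wild type and -0.29 in knockout, beside 0.02 and 0.03 over all genes. In wild type the values at the 2 ages did not overlap for any of the 10 genes, which held for 43.8% of all genes. In knockout this was so for 9 genes, all but Arg1, and for 42.8% of all genes. In whole-tissue RNA, fewer cells of a type and less RNA per cell cannot be told apart.

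Pck1 encodes cytosolic phosphoenolpyruvate carboxykinase, which turns oxaloacetate into phosphoenolpyruvate at the entry to gluconeogenesis. Its values in wild type were 12.48, 12.54 and 12.49 at day 15, and 9.38, 9.92 and 9.19 at day 30. In knockout they were 12.45, 12.42 and 12.29 at day 15, and 9.24, 9.57 and 9.69 at day 30. Every day 15 array lay more than 2 above every day 30 array, and the knockout arrays lay beside the wild type arrays at day 30. The change was -3.01 in wild type, 8.04-fold lower (SE 0.16, limma adjusted p = 3.1e-08). In knockout it was -2.89, 7.40-fold lower (SE 0.16, limma adjusted p = 3.6e-08). The spread was wider at day 30 (SD 0.38 in wild type and 0.24 in knockout, n = 3) than at day 15 (SD 0.03 and 0.08).

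Fbp1 encodes fructose-1,6-bisphosphatase, which removes a phosphate at the second bypass of glycolysis. In wild type it read 11.96, 12.10 and 12.15 at day 15, against 10.06, 10.05 and 10.20 at day 30. The knockout arrays read 12.16, 12.14 and 12.06 at day 15, against 9.99, 10.37 and 9.998 at day 30. The ages were apart in both genotypes, and the genotypes overlapped at both ages. Fbp1 fell by 1.97 in wild type, 3.91-fold (SE 0.10, limma adjusted p = 1.8e-08), and by 2.00 in knockout (SE 0.10, limma adjusted p = 1.3e-08).

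G6pc and Slc37a4 act in series at the last step. Slc37a4 encodes the carrier that brings glucose-6-phosphate into the endoplasmic reticulum, and G6pc encodes the catalytic subunit of the phosphatase that releases glucose there. G6pc in wild type read 11.10, 11.27 and 11.29 at day 15 and 8.05, 8.50 and 8.26 at day 30. In knockout it read 11.37, 11.42 and 11.19 at day 15 and 7.97, 8.77 and 7.88 at day 30. The day 30 arrays of the genotypes overlapped, with knockout replicate 2 above the rest. The fall was 7.70-fold in wild type (log2 change -2.95, SE 0.19, limma adjusted p = 1.8e-07) and 8.69-fold in knockout (-3.12, SE 0.19, limma adjusted p = 1.1e-07).

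Slc37a4 read 10.80, 10.84 and 10.83 in wild type at day 15, and 9.58, 9.46 and 9.58 at day 30. In knockout it read 10.86, 10.82 and 10.95 at day 15, and 9.63, 9.89 and 9.70 at day 30. It was lower on every day 30 array than on every day 15 array, by a smaller margin than the enzymes it works with. The fall was 2.43-fold in wild type (-1.28, SE 0.07, limma adjusted p = 4.8e-08) and 2.20-fold in knockout (-1.14, SE 0.07, limma adjusted p = 1.2e-07). The calls of Pck1, Fbp1, G6pc and Slc37a4 held when any 1 array was left out.

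**Figure D2:**
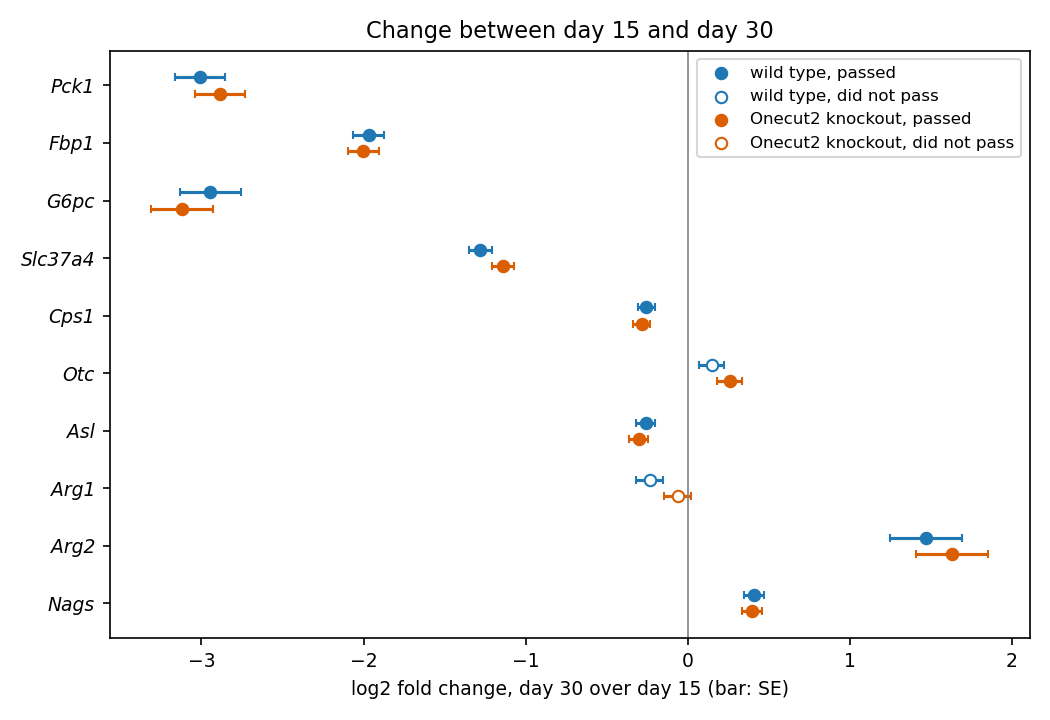
Log2 fold change from day 15 to day 30 (horizontal axis) of the 10 enzyme genes in wild type and Onecut2 knockout. Bars are the moderated standard error, and filled points passed an adjusted p of 0.05. The pair of points of each gene lie close together, from -3.12 for G6pc to 1.63 for Arg2, both in knockout.

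The entry enzymes of the urea cycle changed in opposite directions. Nags makes N-acetylglutamate, the activator that Cps1 needs. It read 9.24, 9.11 and 9.03 in wild type at day 15 and 9.53, 9.53 and 9.55 at day 30, and in knockout 9.35, 9.23 and 9.21, then 9.67, 9.70 and 9.61. All day 30 arrays lay above all day 15 arrays. It rose 1.33-fold in wild type (0.41, SE 0.06, limma adjusted p = 2.3e-04) and 1.32-fold in knockout (0.40, SE 0.06, limma adjusted p = 2.9e-04).

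Cps1, which makes carbamoyl phosphate in mitochondria, read 13.23, 13.14 and 13.24 in wild type at day 15 and 12.98, 12.87 and 13.00 at day 30. In knockout it read 13.25, 13.25 and 13.24 at day 15 and 12.93, 12.96 and 13.00 at day 30. The ages did not overlap, although the difference was small. Cps1 fell 1.19-fold in wild type (-0.25, SE 0.05, limma adjusted p = 0.0028) and 1.22-fold in knockout (-0.28, SE 0.05, limma adjusted p = 0.0013). These values lie near the top of the array's range, which ended at 14.81, where array signals can saturate and differences be compressed. Whether this applied to Cps1 was not tested.

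Otc, which joins carbamoyl phosphate to ornithine to make citrulline, is on the X chromosome. In wild type it read 9.73, 9.78 and 9.66 at day 15 and 9.89, 9.85 and 9.88 at day 30. In knockout it read 10.12, 10.04 and 10.13 at day 15 and 10.19, 10.54 and 10.33 at day 30. The 4 groups did not overlap, in the order knockout day 30, knockout day 15, wild type day 30 and wild type day 15 from high to low. The change with age was 0.15 in wild type (SE 0.08, limma adjusted p = 0.18), which did not pass, and 0.26 in knockout (SE 0.08, limma adjusted p = 0.022), which did. The call in knockout ended without knockout day 15 replicate 2 (0.23, adjusted p = 0.081) and without knockout day 30 replicate 2 (0.17, adjusted p = 0.076).

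Asl splits argininosuccinate into arginine and fumarate. It read 8.90, 8.96 and 8.85 in wild type at day 15 and 8.58, 8.70 and 8.64 at day 30, and in knockout 9.01, 9.02 and 9.11, then 8.75, 8.81 and 8.67. Each genotype was lower at day 30, with no overlap between ages. It fell by 0.26 in wild type (SE 0.06, limma adjusted p = 0.0045) and by 0.30 in knockout (SE 0.06, limma adjusted p = 0.0016). Ass1, which makes argininosuccinate in the step before, lies on features paired with several symbols and was not measured here.

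The 2 arginases, which split arginine into urea and ornithine, differed. Arg2, the mitochondrial form, read 10.86, 10.28 and 9.89 in wild type at day 15 and 11.79, 11.77 and 11.88 at day 30. In knockout it read 10.57, 9.73 and 10.002 at day 15 and 11.61, 11.83 and 11.75 at day 30. The day 15 arrays were widely spread, with replicate 1 the highest in each genotype (SD 0.49 and 0.43, n = 3), and the day 30 arrays lay close together (SD 0.06 and 0.11). Arg2 rose 2.77-fold in wild type (1.47, SE 0.22, limma adjusted p = 2.1e-04) and 3.10-fold in knockout (1.63, SE 0.22, limma adjusted p = 9.4e-05).

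Arg1, the cytosolic arginase known from liver, stayed between 6.03 and 6.44 on all 12 arrays, below every array's median. In wild type it averaged 6.36 ± 0.10 at day 15 and 6.13 ± 0.08 at day 30 (SD, n = 3), and in knockout 6.32 ± 0.07 and 6.25 ± 0.16. The change was -0.23 in wild type (SE 0.08, limma adjusted p = 0.050) and -0.06 in knockout (SE 0.08, limma adjusted p = 0.62), and neither passed. The wild type value passed without wild type day 15 replicate 3 (-0.29, adjusted p = 0.035), without knockout day 30 replicate 2 (-0.23, adjusted p = 0.044) and without knockout day 30 replicate 3 (-0.23, adjusted p = 0.019). Counting these, it passed in 6 of the 23 alternative fits that gave a value, with a lowest limma adjusted p of 0.015.

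Markers of smooth muscle moved with age beside these genes. All 12 were lower at day 30 in both genotypes, with a mean per array of 10.74 to 10.84 in wild type and 10.46 to 10.64 in knockout at day 15, against 10.02 to 10.19 and 10.04 to 10.08 at day 30. With that mean as a covariate, the changes in wild type were -2.46 for Pck1 (limma adjusted p = 0.24), -1.83 for Fbp1 (0.17), -2.20 for G6pc (0.38) and -1.20 for Slc37a4 (0.22). No member passed in wild type, and in knockout only Fbp1 did (-1.90, limma adjusted p = 0.021). Since the marker mean does not overlap between the ages, that fit can hardly tell it from age. Epithelial markers averaged 11.40 to 11.50 at day 15 and 11.55 to 11.59 at day 30, also without overlap, and with them as a covariate 0 members passed in wild type and 4 in knockout, the gluconeogenic genes. Of the 11 measured villus enterocyte markers, 5 rose and 5 fell in wild type and 4 rose and 6 fell in knockout. Of all genes, 29.3% passed with age in wild type and 31% in knockout. The mean of 10 macrophage markers lay between 7.55 and 7.70 on every array.

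The comparison of genotypes asks which genes differ when Onecut2 is ablated. Only Otc among the 10 passed, at both ages. At day 15, 1 of 10 passed where 3.83% of all genes did (1.81% higher), and at day 30, 1 of 10 where 1.98% did (1.04% higher). Median centring changed the day 15 counts over all genes from 360 higher and 404 lower to 415 and 277. The median difference of the 10 genes, knockout over wild type, was 0.05 at day 15 and 0.06 at day 30, beside -0.01 and 0.00 over all genes. The groups did not overlap for 4 genes at day 15 (Pck1 lower in knockout, and Cps1, Otc and Asl higher) and for 3 at day 30 (Slc37a4, Otc and Nags, all higher). Over all genes this held for 21.3% and 15.4%.

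Otc averaged 9.73 ± 0.06 in wild type and 10.10 ± 0.05 in knockout at day 15 (SD, n = 3), 1.29-fold higher in knockout (0.37, 95% interval 0.20 to 0.54, limma adjusted p = 0.019). At day 30 it averaged 9.87 ± 0.02 and 10.36 ± 0.18, 1.40-fold higher (0.48, 95% interval 0.31 to 0.65, limma adjusted p = 0.0054). Every knockout array was above every wild type array, across ages as well. The day 15 call ended without wild type replicate 1 (0.37, adjusted p = 0.053) or 3 (0.34, adjusted p = 0.084) and without knockout replicate 1 (0.36, adjusted p = 0.052) or 3 (0.35, adjusted p = 0.073). The day 30 call passed in each of the 24 alternative fits.

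Since the pools were of mixed sex, the level of Xist, the RNA of the inactive X chromosome, was set beside the X-linked Otc. Xist read 11.37, 10.25 and 10.93 in wild type and 10.43, 10.61 and 10.78 in knockout at day 15, and 9.26, 10.67 and 9.53 in wild type and 10.66, 10.33 and 10.81 in knockout at day 30. The genotypes overlapped at both ages. With Xist as a covariate, chosen after the data had been seen, the Otc difference was 0.35 at day 15 (limma adjusted p = 0.039) and 0.53 at day 30 (limma adjusted p = 0.021). At day 15 the smooth muscle mean was lower in every knockout pool, the pancreas acinar mean was 12.86 to 12.93 in wild type and 12.05 to 12.65 in knockout, and the stomach and Brunner gland mean was 10.42 to 10.62 and 9.82 to 10.55. With the smooth muscle and the pancreas mean as covariates the day 15 difference was 0.39 (adjusted p = 0.33) and 0.41 (adjusted p = 0.087). With the epithelial mean it was 0.33 (adjusted p = 0.92). That mean was 11.40 to 11.42 in wild type and 11.48 to 11.50 in knockout at day 15. None of these means overlapped between the genotypes at day 15, so these fits cannot well separate them from genotype. The villus enterocyte mean, higher on every knockout array, was not used as a covariate.

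**Figure D3:**
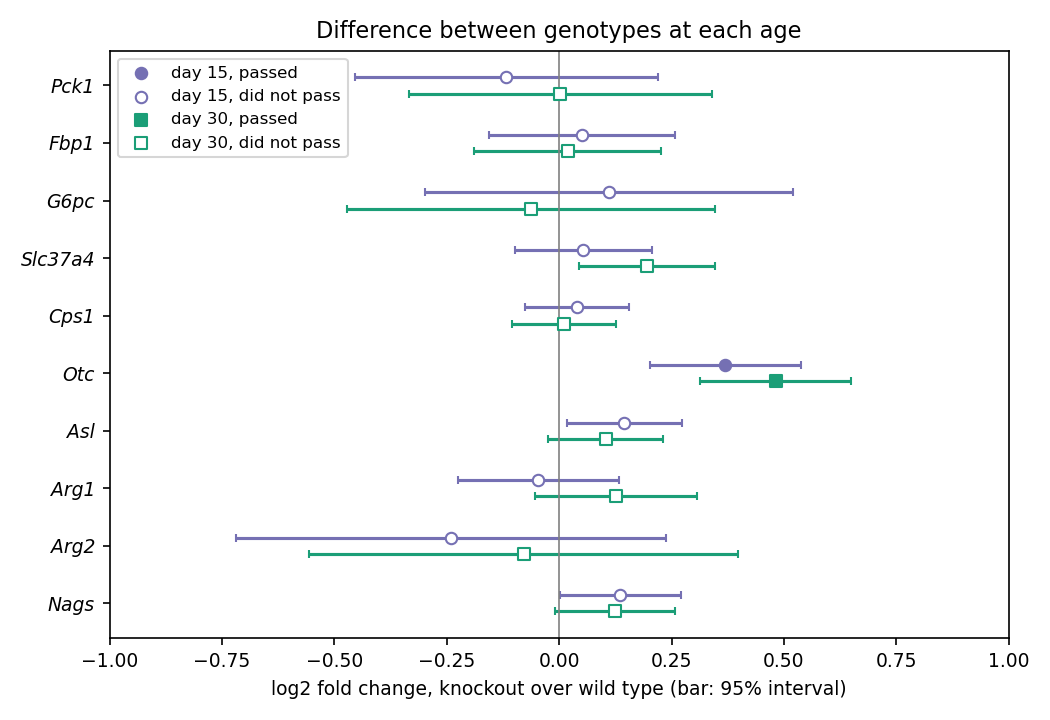
Log2 fold change of knockout over wild type (horizontal axis) for the 10 enzyme genes at day 15 and day 30, with 95% intervals. Filled symbols passed an adjusted p of 0.05. Otc alone passed, at 0.37 and 0.48, and most of the other intervals include 0.

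For the gluconeogenic genes the genotype differences were small against those of age. The 95% interval for Pck1 had the bounds -0.45 and 0.22 at day 15, and -0.33 and 0.34 at day 30. For Fbp1 the bounds were -0.16 and 0.26 at day 15, and -0.19 and 0.23 at day 30. For G6pc, the least precise of the 4, they were -0.30 and 0.52, then -0.47 and 0.35. Slc37a4 was 0.19 higher in knockout at day 30 (interval 0.04 to 0.35), with the groups apart, and did not pass (limma adjusted p = 0.26).

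Of the urea cycle and arginine genes that did not pass, Asl stood 0.14 higher in knockout at day 15 (interval 0.02 to 0.27, limma adjusted p = 0.25). Nags stood 0.14 higher at day 15 (interval 0.00 to 0.27) and 0.12 higher at day 30 (interval -0.01 to 0.26). The intervals of Cps1 were narrow, -0.08 to 0.16 and -0.11 to 0.13. Those of Arg2 were wide, -0.72 to 0.24 and -0.56 to 0.40, and those of Arg1 were -0.23 to 0.13 and -0.05 to 0.31. An adjusted p above the threshold does not show that these genes were alike in both genotypes.

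The last comparison asks whether the genotype difference itself changed between the ages. None of the 10 genes passed in limma (0 of 10, and 0 at an unadjusted p of 0.05), where 0.456% of all genes did. The median of these differences was 0.05 over the 10 genes and 0.01 over all genes. The values ran from -0.17 for G6pc to 0.17 for Arg1, and the difference for Otc was 0.11 (limma adjusted p = 0.87). The comparisons of age and of genotype share arrays, so their values stand side by side and are not independent.

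The genes whose levels over the 12 arrays were most like those of these enzymes were found by Pearson's r, for the 5 whose group means spanned at least 1. The 12 arrays fall into 2 ages, so r mostly reflects the age difference, and it is given as a description. For Pck1 they were the cell cycle inhibitor gene Cdkn1c (0.995), Lect2 (0.992) and the matrix gene Postn (0.989). Fbp1 was nearest to Cubn (0.997), which encodes the endocytic receptor cubilin, to the transporter gene Slc16a6 (0.996) and to Pon2 (0.996). For G6pc they were Fbp1 (0.996), the growth hormone receptor gene Ghr (0.996) and Pon2 (0.994). Slc37a4 was nearest to Cubn (0.996), Slc16a6 (0.995) and the apolipoprotein gene Apoc3 (0.994). For Arg2 they were Sfxn1 (0.987), a mitochondrial serine carrier, Adh4 (0.986) and the tight junction gene Cldn3 (0.984).

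As a list, the other genes of gluconeogenesis did not follow the 4 genes of the bypass steps. Most of them also serve glycolysis or the malate shuttle. Of 25 listed, 19 were measured. Of all genes, 12.3% passed as higher and 17% as lower with age in wild type, and 13.8% and 17.2% in knockout. On this list 7 rose and 3 fell with age in wild type, and 9 rose and 3 fell in knockout, with median changes of -0.05 and 0.19. Those that rose in both included the shuttle genes Mdh1 (0.33 and 0.50), Mdh2 (0.40 and 0.47) and Got1 (1.12 and 1.40), and the shared glycolytic genes Pgk1 (0.31 and 0.41), Pgam1 (0.46 and 0.68) and Tpi1 (0.25 and 0.42). The shuttle gene Got2 went the other way and fell by 0.37 and 0.26 (limma adjusted p = 3.6e-04 and 0.0048). Pck2, the mitochondrial form of Pck1, fell by 0.28 and 0.25 (limma adjusted p = 0.0013 and 0.0029). Slc2a2, the basolateral glucose transporter gene, did not pass (-0.13 and 0.19).

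Pcx, which makes the oxaloacetate that Pck1 consumes, changed the other way from Pck1. It read 8.88, 9.02 and 8.82 in wild type at day 15 and 10.20, 10.36 and 10.29 at day 30, and in knockout 8.77, 8.24 and 8.19, then 9.69, 9.74 and 9.75. The 4 groups did not overlap. It rose by 1.37 in wild type, 2.59-fold (SE 0.12, limma adjusted p = 2.8e-06), and by 1.33 in knockout, 2.51-fold (SE 0.12, limma adjusted p = 3.9e-06). Knockout was lower by -0.51 at day 15 (SE 0.12, limma adjusted p = 0.040) and by -0.55 at day 30 (SE 0.12, limma adjusted p = 0.037). Both genotype calls were weak. With 1 array left out the day 15 value ran from -0.69 (without knockout day 15 replicate 1, which kept the call) to -0.40, and its adjusted p reached 0.18, without knockout day 15 replicate 2. At day 30 the value ran from -0.60 to -0.51 and its adjusted p reached 0.14, without knockout replicate 1. The day 15 call ended in 9 of the 12 such fits, among them each that left out a wild type day 15 array, and the day 30 call in 8, among them each that left out a day 30 array. Stomach and Brunner gland markers moved beside Pcx at day 15: 3 of 9 measured passed as lower in knockout, where 3.83% of all genes passed in either direction. Their mean per array was 10.42 to 10.62 in wild type and 10.55, 9.88 and 9.82 in knockout replicates 1 to 3. At day 30 their mean was 10.34 to 11.07 in wild type and 10.49 to 10.68 in knockout, and their part in the Pcx difference was not tested.

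The genes of the one-way steps of glycolysis, which run against gluconeogenesis, mostly rose. Of 14 listed, 12 were measured. In wild type 8 rose and 2 fell with age, where 12.3% and 17% of all genes did. In knockout 7 rose and 3 fell, where 13.8% and 17.2% of all genes did. The median changes of the list were 0.43 and 0.30. Hexokinase 2 (Hk2, 0.62 and 0.79), the platelet-type phosphofructokinase Pfkp (0.60 and 0.52), the pyruvate kinase gene Pkm (0.56 and 0.77) and Pfkfb4 (0.77 and 0.79), which makes the activator fructose-2,6-bisphosphate, rose in both genotypes. The liver and muscle forms of phosphofructokinase fell, Pfkl by 0.49 and 0.40 and Pfkm by 0.64 and 0.52. Pfkfb3, which makes the same activator, rose by 0.96 and 1.02. It was also higher in knockout, by 0.72 at day 15 (SE 0.15, limma adjusted p = 0.020) and 0.77 at day 30 (SE 0.15, limma adjusted p = 0.018). The day 15 call ended without wild type replicate 1 (0.59, adjusted p = 0.075) and without knockout replicate 2 (0.63, adjusted p = 0.10) or 3 (0.60, adjusted p = 0.082). The day 30 call ended without wild type replicate 1 or 3 and without any 1 knockout array (0.71 to 0.80, adjusted p = 0.056 to 0.078).

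**Figure D4:**
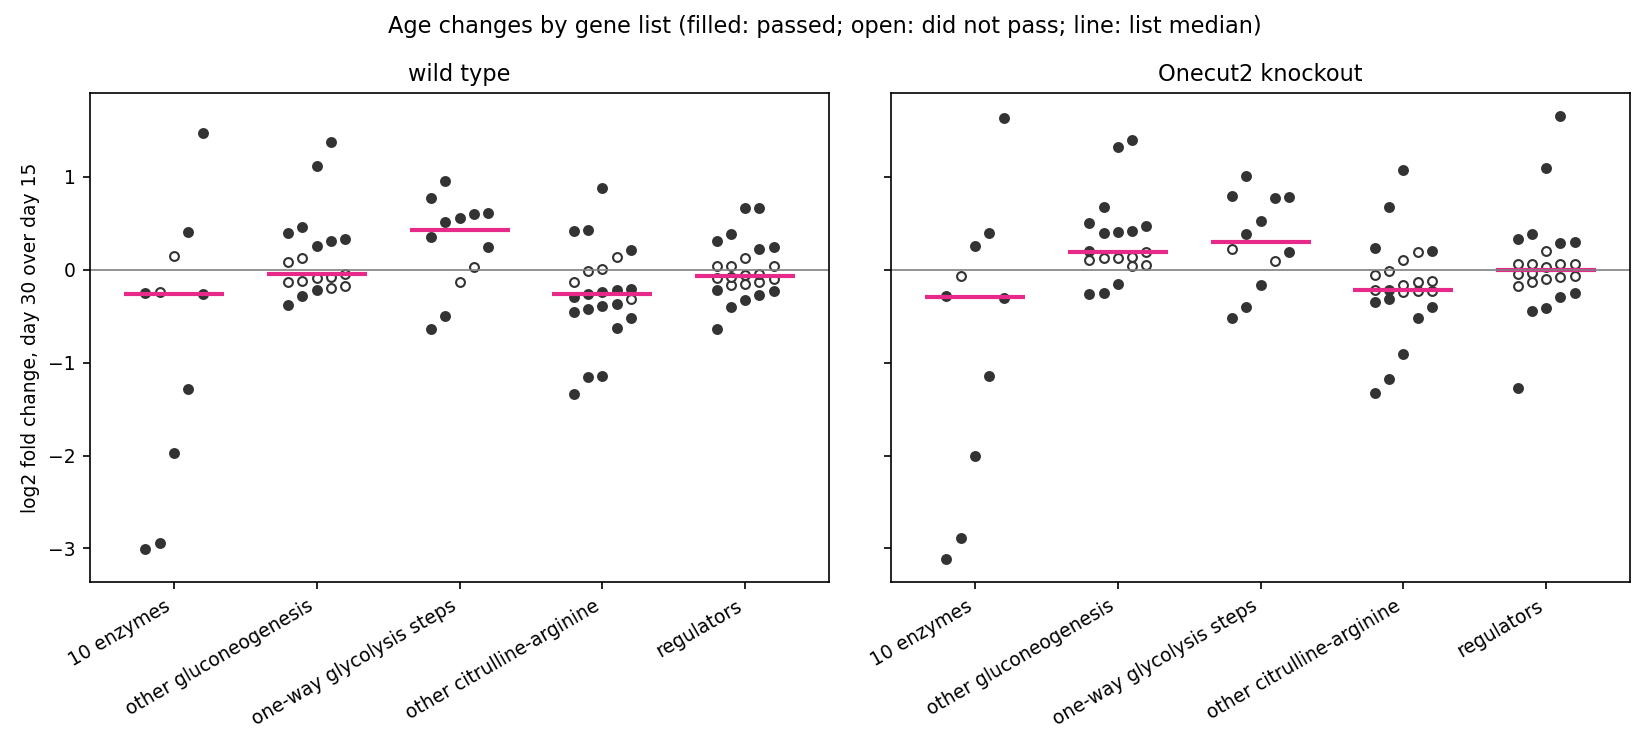
Log2 fold change from day 15 to day 30 (vertical axis) of each measured gene of the 10 enzymes and of 4 lists of related genes, in wild type (left) and Onecut2 knockout (right). Filled points passed an adjusted p of 0.05, and lines are list medians. The medians for the 10 enzymes were -0.26 and -0.29, and for the one-way glycolysis steps 0.43 and 0.30.

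Among the other genes of citrulline and arginine metabolism, falls were more common. Of 28 listed, 23 were measured. In wild type 4 rose and 14 fell with age, where 12.3% and 17% of all genes did. In knockout 4 rose and 8 fell, where 13.8% and 17.2% of all genes did. The median changes of the list were -0.26 and -0.21. The largest falls of this list in wild type were of Oat, Agmat and Aldh18a1. Aldh18a1 makes pyrroline-5-carboxylate from glutamate, and Oat links that product to ornithine. Aldh18a1 averaged 12.37 ± 0.03 and 12.40 ± 0.02 in wild type and knockout at day 15 and 11.22 ± 0.05 and 11.22 ± 0.08 at day 30 (SD, n = 3). It fell by 1.15 in wild type (SE 0.05, limma adjusted p = 1.3e-08) and by 1.18 in knockout (SE 0.05, limma adjusted p = 9.7e-09). Oat averaged 12.66 ± 0.09 and 12.70 ± 0.02 at day 15 and 11.32 ± 0.09 and 11.38 ± 0.11 at day 30. It fell by 1.33 in each genotype (SE 0.07, limma adjusted p = 4.0e-08 and 3.3e-08).

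Agmat, an enzyme gene related to the arginases, read 10.23, 9.995 and 9.95 in wild type at day 15 and 8.90, 8.81 and 8.99 at day 30, and in knockout 9.53, 9.54 and 9.45, then 8.53, 8.67 and 8.60. The 4 groups did not overlap. It fell by 1.16 in wild type (SE 0.08, limma adjusted p = 2.6e-07) and by 0.91 in knockout (SE 0.08, limma adjusted p = 1.9e-06). Knockout was lower by -0.55 at day 15 (SE 0.08, limma adjusted p = 0.0014), and at day 30 the difference was -0.30 and did not pass (limma adjusted p = 0.076). The day 15 call ended with the epithelial mean as a covariate (-0.75, adjusted p = 0.40). At day 15 that mean did not overlap between the genotypes, so the fit can hardly tell it from genotype. Slc25a15, the mitochondrial ornithine carrier gene, fell by 0.22 in wild type (limma adjusted p = 0.010) and in knockout stood at -0.12 (limma adjusted p = 0.13). Slc25a13, an aspartate-glutamate carrier gene, fell by 0.26 and 0.40, and Glul, which makes glutamine, fell by 0.42 and 0.32. Glud1, the glutamate dehydrogenase gene, fell by 0.21 in wild type (limma adjusted p = 0.022) and rose by 0.20 in knockout (limma adjusted p = 0.029), and the test of the difference between these did not pass (0.41, limma adjusted p = 0.078). Nos2, which makes nitric oxide and citrulline from arginine, rose by 0.88 and 1.07.

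The 3 genes named next were higher in knockout with values that held when any 1 array was left out. Slc7a7, the basolateral exporter subunit for basic amino acids, read 9.90, 9.91 and 9.97 in wild type and 10.33, 10.36 and 10.26 in knockout at day 30, a difference of 0.39 (SE 0.06, limma adjusted p = 0.0038). Prodh, which starts the route from proline, read 9.21, 9.05 and 9.04 in wild type and 9.61, 9.55 and 9.59 in knockout at day 30, a difference of 0.48 (SE 0.06, limma adjusted p = 4.9e-04). Slc7a9, a subunit of the apical transporter for cystine and basic amino acids, was 0.40 higher in knockout at day 15 (SE 0.06, limma adjusted p = 0.0038). For each of these the arrays of the genotypes were apart. Slc25a12, the related carrier gene, was lower in knockout at day 15 (-0.45, SE 0.07, limma adjusted p = 0.0022). Once the smooth muscle mean was a covariate, the day 15 calls of Slc7a9 (0.44, adjusted p = 0.18) and Slc25a12 (-0.31, adjusted p = 0.33) ended. They also ended with the epithelial mean (0.41, adjusted p = 0.79, and -0.26, adjusted p = 0.93). Neither mean overlapped between the genotypes at day 15, so these fits can hardly tell it from genotype. The calls of Slc7a7 and Prodh at day 30 passed in all 24 alternative fits.

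Of 26 listed regulators, 24 were measured. With age, 6 rose and 6 fell in wild type, where 12.3% and 17% of all genes did. In knockout 6 rose and 5 fell, where 13.8% and 17.2% of all genes did. The median changes of the list were -0.06 and 0.00. The coactivator gene Ppargc1a, known to raise gluconeogenic genes in liver, rose 1.58-fold in wild type (limma adjusted p = 1.8e-04) and 2.14-fold in knockout (limma adjusted p = 2.7e-06). Prdm1, a repressor gene active in the suckling-stage epithelium, fell by 0.63 (SE 0.15, limma adjusted p = 0.0049) and by 1.27 (SE 0.15, limma adjusted p = 2.4e-05). Creb3l3, a membrane-bound factor of liver and gut, fell by 0.27 and 0.41. Esrra, a nuclear receptor gene of mitochondrial metabolism, rose by 0.31 and 0.30, and Tsc22d3, a gene induced by glucocorticoids, fell by 0.40 and 0.29. Hnf4a rose by 0.23 in wild type (limma adjusted p = 0.0044) and stood at 0.06 in knockout (limma adjusted p = 0.40). The glucocorticoid receptor gene Nr3c1 did not pass (-0.10 and -0.18).

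Fkbp5, another gene induced by glucocorticoids, read 7.94, 7.95 and 7.98 in wild type at day 15 and 8.58, 8.92 and 8.36 at day 30. In knockout it read 8.38, 7.91 and 7.92, then 9.90, 9.67 and 9.62. The genotypes overlapped at day 15 and were apart at day 30. It was 1.11 higher in knockout at day 30, 2.15-fold (SE 0.14, limma adjusted p = 0.0010), and the genotype difference changed with age by 0.99, which did not pass (limma adjusted p = 0.058). For Tsc22d3 the genotype difference at day 30 was 0.03 (limma adjusted p = 0.95).

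**Figure D5:**
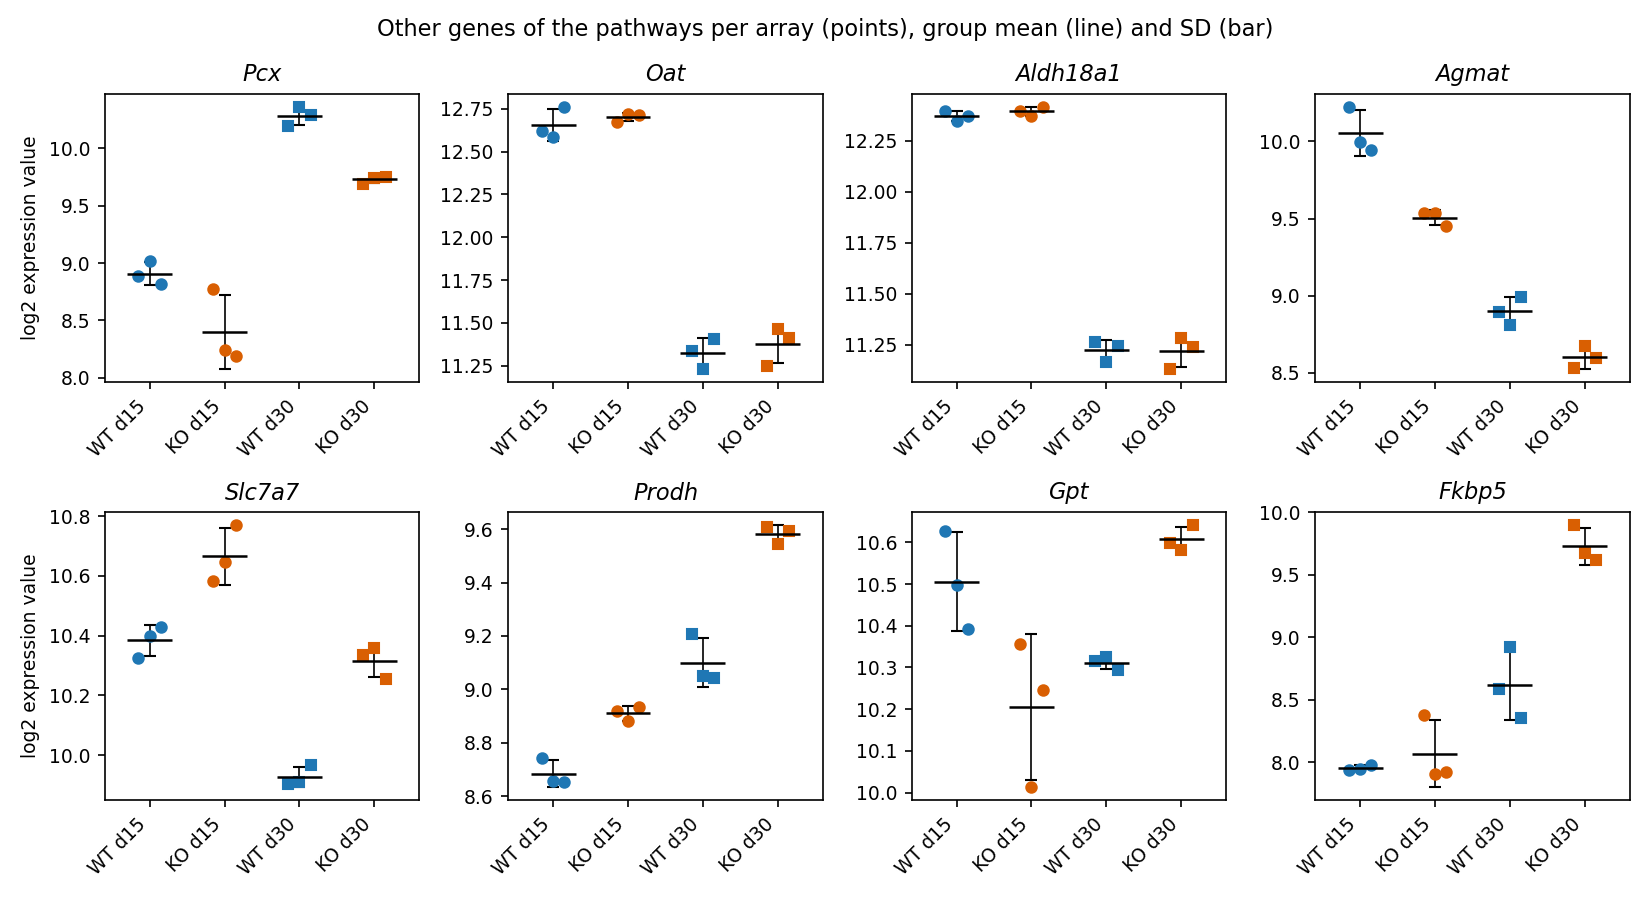
Log2 expression value (vertical axis, a separate scale for each gene) of 8 other genes of these pathways on each array, by genotype and postnatal day. Points are arrays, horizontal lines are group means and bars are the SD over 3 arrays. Oat and Aldh18a1 separate by age alone, Pcx and Agmat are lower in knockout at each age, and Slc7a7 and Prodh are higher in knockout at each age.

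Between genotypes, 3.83% of all genes passed at day 15 and 1.98% at day 30. Counted over the lists, 2 of the 19 other gluconeogenic genes passed at day 15 (both lower in knockout) and 2 at day 30 (1 higher and 1 lower). For the one-way glycolysis genes the counts were 2 and 1 of 12, all higher. For the citrulline and arginine genes they were 5 of 23 at day 15 (3 higher and 2 lower) and 2 at day 30 (both higher), and for the regulators 3 and 1 of 24. The medians of these 4 lists lay between -0.06 and 0.10 at the 2 ages. Of the calls not described above, those of Got2 (-0.26), Pfkfb2 (0.35), Slc7a7 (0.28), Prodh (0.23), Cebpa (0.31), Ppargc1b (-0.27) and Klf15 (-0.33) at day 15 each ended without 1 or another of the day 15 arrays. That of Got1 at day 30 (0.35, limma adjusted p = 0.012) ended without wild type replicate 3 (0.34, adjusted p = 0.065).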

How the data were processed

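Total RNA was measured on Affymetrix whole-transcript arrays. Per the submitters' processing notes, the authors made the deposited log2 expression values with RMA in Affymetrix Expression Console version 1.1. RMA corrects background, normalizes quantiles and summarises probes. It removes a change shared by most genes and can flatten very dim signals. The log base is not written in the table and was taken as 2 from RMA and from the range of values, 2.74 to 14.81. No source used here gives the genome build of the probe annotation.

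The table had 35557 features, of which 21789 carried 1 gene symbol, 1621 carried several and 12147 carried none. Where 999 genes had several features, the brightest was used, which left 19938 genes. A linear model of 4 group means was fitted to 12 arrays (8 residual degrees of freedom) in limma (version 3.58.1, on R 4.3.3), with moderated variances (eBayes) and two-sided tests. The 5 comparisons were age within each genotype, genotype at each age, and the difference between the genotype effects. The code was tested on simulated data.

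The 10 members and the lists were chosen with earlier results of these data known. The text names all 10 members, and from each of 4 lists of pathway genes up to 6 called genes with the smallest p in each comparison, together with a fixed set of pathway genes whatever their values. It also names the 3 genes nearest to each member whose group means span at least 1. The other named genes of these lists were chosen after their values were seen. Promoters came from a RefSeq table (GRCm38.p6), which held 6 of the 10 members. Alternatives were an intensity trend, robust moderation, the brighter genes, the mean over features, median centring, only the groups compared, array weights, the replicate number as a block, marker means as covariates and each array left out. Xist as a covariate was added after the data had been seen. The number of arrays limits the precision.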

Additional observations from a re-analysis of the deposited data

Results flagged for a closer look

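Gpt, an alanine aminotransferase gene of the gluconeogenic list, was the only named gene that passed the test of a change in the genotype difference with age. It read 10.63, 10.50 and 10.39 in wild type and 10.36, 10.01 and 10.25 in knockout at day 15, and 10.31, 10.32 and 10.29 in wild type and 10.60, 10.58 and 10.64 in knockout at day 30. Knockout was lower at day 15 (-0.30, limma adjusted p = 0.068) and higher at day 30 (0.30, limma adjusted p = 0.11), and neither difference passed alone. The change between them was 0.60 (SE 0.12, limma adjusted p = 0.049), just past the threshold. The call ended in 11 of 12 fits that left out 1 array, with values from 0.50 (without knockout day 15 replicate 2, adjusted p = 0.085) to 0.65 (without wild type day 15 replicate 3, adjusted p = 0.053), and held without knockout day 15 replicate 1 (0.67, adjusted p = 0.018).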

How the results depend on the processing

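Most calls of the enzyme genes did not depend on the fit, except where a marker mean that follows age was added. With the mean of the smooth muscle markers as a covariate, the members called with age went from 8 to 0 in wild type and from 9 to 1 in knockout, and with the epithelial mean to 0 and 4. For the 4 other lists either mean left 0 calls with age in wild type, and in knockout 0 to 3 (smooth muscle) and 1 to 5 (epithelial) per list. Asl in wild type then stood at 0.030 with the smooth muscle mean and Glul at 0.034 (adjusted p = 0.97 for both), and Arg2 at -0.15 with the epithelial mean (adjusted p = 1.00), each turned in sign and far from the threshold. Neither mean overlaps between the ages. At day 15 the genotype call of Otc, the only member called, ended with the smooth muscle, pancreas acinar or epithelial mean, leaving 0. None of these means overlaps between the genotypes at day 15. With 1 array left out, the members called ranged from 8 to 9 with age in each genotype, from 0 to 1 between genotypes at day 15, and stayed at 1 at day 30. Asl's fall in wild type lost its call with Xist as a covariate (adjusted p = 0.065). Otc's rise with age in knockout lost its call with only the groups compared (adjusted p = 0.067).

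Deviations of same-numbered arrays from their group means correlated between -0.25 and 0.36, above 0.1 in 7 of 18 pairs. Between wild type and knockout at day 15 they were 0.36, -0.01 and 0.26 for replicates 1 to 3. Arrays with different numbers were not compared in this way, so these values cannot show whether the replicate numbers pair the samples. With the replicate block, members called with age stayed at 8 and 9, those between genotypes at 1 and 1, and the call for Gpt was lost (adjusted p = 0.061).

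Over all genes, the count with age in wild type went from 5849 to 37 (smooth muscle), 13 (epithelial) and 3829 (Xist), and in knockout from 6178 to 223 and 487. Between genotypes at day 15 it went from 764 to 480 with only the groups compared, 1218 with array weights and 78, 216 and 16 with the smooth muscle, pancreas and epithelial means (340 to 782 with 1 array left out), and at day 30 from 395 to 596 with an intensity trend, 635 with the brighter genes, 237 with only the groups compared, 194 with the pancreas mean and 185 with Xist (218 to 420 with 1 array left out). For the difference it went from 91 to 177 with an intensity trend or the brighter genes, 155 with array weights, and 30, 4 and 33 with the smooth muscle, epithelial and Xist covariates (47 to 123 with 1 array left out). Of 2898 named-gene results over 24 alternatives, 2613 stayed on their side of the threshold, 268 lost the call, 14 gained it and 3 that had a call turned in sign. Among the 2613 were 46 that changed sign with no call in either fit. With the brighter genes alone, Arg1 gave no value.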

Other observations

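Tat, which encodes the amino acid-degrading enzyme tyrosine aminotransferase and is listed among the hepatocyte markers, was the only one of the 13 measured markers of that list to pass between genotypes at day 30. Its means were 6.36 and 6.55 in wild type and knockout at day 15 and 6.91 and 7.63 at day 30. It was named after its values had been seen.

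In knockout at day 30, replicate 2 gave the highest of the 3 values for 7 of the 10 enzyme genes, Fbp1 (10.37), G6pc (8.77), Slc37a4 (9.89), Otc (10.54), Asl (8.81), Arg2 (11.83) and Nags (9.70). For Pck1 (9.69), Cps1 (13.00) and Arg1 (6.44) replicate 3 was the highest. The share of all genes with replicate 2 highest was not counted. Whether this pattern is particular to the enzyme genes was therefore not tested.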
